A study of Mus musculus with 16 samples.

Results

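Genes of mitochondrial fusion and fission were followed in the tibialis anterior, a fast muscle of the lower hind limb, of mice whose mothers and who themselves had received different amounts of food. The 7 genes were Mfn1, Mfn2, Opa1, Dnm1l, Fis1, Mff and Pink1, out of 24828 genes tested. They were taken by name, with earlier results of these data known, and found on the array through the RefSeq accession that the files give for each probe. Among 41174 non-control probes on the array, 8 matched, with 1 probe for each gene except Dnm1l, which had 2. All 8 probes were well above background on 16 of 16 arrays, so every member passed the filter on dim probes.

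Mitochondria in muscle fuse and divide continually, and the balance of these processes sets the shape of the mitochondrial network. Fusion of the outer membrane is carried out by the mitofusins MFN1 and MFN2, and fusion of the inner membrane by OPA1. Division is carried out by the dynamin-related GTPase DRP1, the product of Dnm1l, which is drawn from the cytosol to the outer membrane by receptors that include MFF and, with a more debated part, FIS1. PINK1 is a kinase that builds up on damaged mitochondria and marks them for removal by autophagy.

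The study crossed maternal with offspring diet. Undernourished CR offspring came from dams that had their food cut by 50% in the third week of gestation, and were themselves calorie restricted (CR). Undernourished AL offspring came from such dams and ate ad libitum (AL), control CR offspring came from control dams and were calorie restricted, and control AL offspring came from control dams and ate ad libitum. Each group had 8 mice, whose RNA was pooled in pairs to give 4 one-colour Agilent arrays per group and 16 in all. The strain, sex and age of the mice and the degree and length of the calorie restriction were not given in the sources used here. A value below is the level of a gene, log2 of its processed signal over the 75th percentile of that array's non-control probes, so a higher value is a brighter probe. Levels of different probes cannot be set against each other. Differences between groups are in the same log2 units, with a standard error (SE) from a limma model of all 4 groups, and a gene was called where its p, adjusted over all 24828 genes by the Benjamini-Hochberg method, was under 0.05. The p-values measure the spread between pools of 2 mice.

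Of non-control spots, 66.4% to 74.0% were well above background on the AL arrays and 74.3% to 78.5% on the CR arrays, without overlap. The 75th percentile of signal used for scaling was 388 to 589 on AL and 541 to 829 on CR arrays. All 10 fast skeletal muscle markers checked were well above background on every array. Arrays of AL and CR offspring were scanned on different days and lay on different slides, so offspring diet and scan day cannot be told apart. Transcripts known from brain stood apart between the diets. The summed linear level of 39 brain markers was 35.8 to 38.7 in undernourished CR and 35.7 to 47.3 in control CR arrays, against 43.1 to 104 in undernourished AL and 70.4 to 415 in control AL arrays. Of them, 7 (Gap43, Gria1, Nefm, Neurod6, Olig1, Slc1a2 and Ttr) were well above background on no CR array. Each CR array still had 24 to 30 of the 39 brain markers well above background, against 30 to 38 on AL arrays. The summed level of 15 skin markers was 1.099 to 1.685 in control CR arrays, against 27.5 to 74.5 in replicates 1 to 3 and 1.57 in replicate 4 of control AL. A brain index, the median of the brain markers' linear signals relative to the highest array, was 1 and 0.779 in control AL replicates 1 and 2, both on slide 1. It was 0.046 to 0.206 in the other 6 AL arrays and 0.014 to 0.020 in the 8 CR arrays. The part of these transcripts in the results below was not tested beyond the values given without these arrays or with the index in the model.

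Because Mfn2 and Opa1 were the members that differed between diets, the sequence upstream of a start of each is shown, from RefSeq on GRCm38.p6. Each line gives the first 205 of the 250 bases before that start, on the gene's own strand and 5′ to 3′ (chr4:147904955-147905159, minus strand, for Mfn2 and chr16:29579084-29579288, plus strand, for Opa1), and capitals mark a motif match.
Mfn2: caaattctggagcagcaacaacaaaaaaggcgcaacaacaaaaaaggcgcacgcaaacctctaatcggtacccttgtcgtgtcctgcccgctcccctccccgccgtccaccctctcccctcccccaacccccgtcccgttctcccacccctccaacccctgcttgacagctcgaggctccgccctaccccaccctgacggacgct
Opa1: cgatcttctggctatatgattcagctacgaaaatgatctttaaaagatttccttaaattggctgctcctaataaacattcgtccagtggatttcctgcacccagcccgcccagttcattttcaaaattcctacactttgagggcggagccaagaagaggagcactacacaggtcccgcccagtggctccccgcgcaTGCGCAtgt
Motifs of 4 kinds of factor known for mitochondrial or metabolic genes were searched on both strands of all 250 bases. These were AAGGTCA (a half-site of the oestrogen-related receptors), TGACGT (the core of the cyclic AMP response element), TGCGCA (the core of the site of nuclear respiratory factor NRF1, which reads the same on both strands) and CCGGAAG (the ETS family). The NRF1 core, held by 6.43% of the 32851 windows of the same length in the table, was matched once upstream of Opa1, beginning 54 bases before the start, and once upstream of Pink1 and in 1 of the 2 windows of Fis1. The core of the cyclic AMP response element, held by 6.47% of all windows, was matched upstream of Mfn2 only in the windows of 2 later starts and not in the one shown. Those 2 windows overlap, and a match they share is the same site in both. The ETS motif, held by 6.91% of all windows, was matched once upstream of Mfn1 and once upstream of Fis1. The half-site of the oestrogen-related receptors, held by 4.08% of all windows, was matched upstream of no member. None of the 4 motifs was matched upstream of Dnm1l or Mff, and within a window no 2 matches overlapped.

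In offspring of control dams, calorie restriction went with higher levels of Mfn2 and Opa1, a gene of outer and a gene of inner membrane fusion. Mfn2 was 1.43-fold and Opa1 1.52-fold higher in CR than in AL muscle. The other fusion gene, Mfn1, the genes of division and Pink1 did not pass the test. The 2 called members, both higher, stand against 17.3% of all tested genes called higher in the same comparison. The median difference of the 7 members was 0.27, against 0.07 over all genes tested.

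The level of Mfn2 was 5.39, 5.49, 5.56 and 5.37 on the control CR arrays, against 4.83, 4.61, 5.12 and 5.18 on the control AL arrays. The groups did not overlap, and the 2 lowest AL arrays were replicates 1 and 2, those with the highest brain index. The difference was 0.52 ± 0.13 (SE, limma adjusted p = 0.00585). It was positive in each of 19 alternative analyses, between 0.27 and 1.04, of which 8 left out 1 control array. Since Mfn2 has 1 probe, well above background on every array, the difference could not change with the filter or probe choice. It kept its call when any 1 control array was left out (adjusted p of 0.0022 to 0.0202). It lost its call without both control AL arrays of slide 1 (0.30, adjusted p = 0.092), with the brain index in the model (0.27, adjusted p = 0.214) and without the 5 arrays reported earlier to carry skin or liver transcripts (0.27, adjusted p = 0.348). Those 5 were control AL replicates 1, 2 and 3, undernourished AL replicate 3 and undernourished CR replicate 2, so 1 control AL array was left.

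The level of Opa1, the dynamin-like GTPase of the inner membrane that also shapes the cristae, was 2.24, 2.14, 2.52 and 2.36 on the control CR arrays. On the control AL arrays it was 1.33, 1.72, 1.74 and 2.03. Here too every CR array lay above every AL array, and the lowest was control AL replicate 1. The difference was 0.61 ± 0.16 (SE, limma adjusted p = 0.00938). It ranged from 0.28 to 1.05 over 19 alternative analyses and was called in 16 of them. Of the 19, 8 left out 1 control array, and the filter and probe choice could not change the difference of Opa1 either. The 3 that ended the call were the same as for Mfn2, with 0.43 without the control AL arrays of slide 1 (adjusted p = 0.11), 0.31 with the brain index (adjusted p = 0.283) and 0.28 without the 5 arrays (adjusted p = 0.522).

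Mfn1, the other mitofusin, was at 4.67 to 4.92 on the control CR arrays, against 4.22 to 4.84 on the control AL arrays. Its difference was 0.34 ± 0.15 and did not pass the test (SE, limma adjusted p = 0.0998), and the groups overlapped through AL replicates 3 and 4, at 4.69 and 4.84. AL replicates 1 and 2 were at 4.27 and 4.22. With the brain index in the model the difference was -0.004 (limma adjusted p = 0.991).

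Among the genes of division, Mff, the outer membrane receptor for DRP1, had control CR levels of 4.04, 3.88, 3.88 and 4.16, against control AL levels of 3.63, 3.80, 3.69 and 3.75. Its groups did not overlap, but the difference of 0.27 ± 0.13 did not pass the test (SE, limma adjusted p = 0.123). With Mfn2 and Opa1, it made 3 of 7 members with every control CR array above every control AL array, against 17.5% of all genes tested.

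Dnm1l, the gene of DRP1 itself, was at 2.83, 2.61, 2.94 and 2.95 on the control CR arrays, against 2.63, 2.71, 2.51 and 3.07 on the control AL arrays. The groups overlapped over most of their range. The difference was 0.10 (95% interval -0.19 to 0.40, limma adjusted p = 0.605). A dimmer probe of Dnm1l gave 0.32 ± 0.12 (SE, adjusted p = 0.0586), with control CR levels of 0.31 to 0.51 just above control AL levels of -0.21 to 0.30. Neither probe was called, and they differed in size. Fis1 was at 2.59 to 2.69 on the control CR arrays, against 2.33 to 2.74 on the control AL arrays, a difference of 0.13 (95% interval -0.12 to 0.37, limma adjusted p = 0.428). Its level varied less among the CR arrays (SD 0.05) than among the AL arrays (SD 0.17), and this difference in spread was not tested. The directions of Dnm1l and Fis1 turned under quantile normalization, to -0.06 and -0.03.

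Pink1 was at 6.72, 6.84, 6.63 and 6.85 on the control CR arrays, against 6.28, 6.42, 6.69 and 6.62 on the control AL arrays. Its difference of 0.26 ± 0.11 did not pass the test (SE, limma adjusted p = 0.0817). The groups overlapped only in that AL replicate 3 lay above CR replicate 3.

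**Figure D1:**
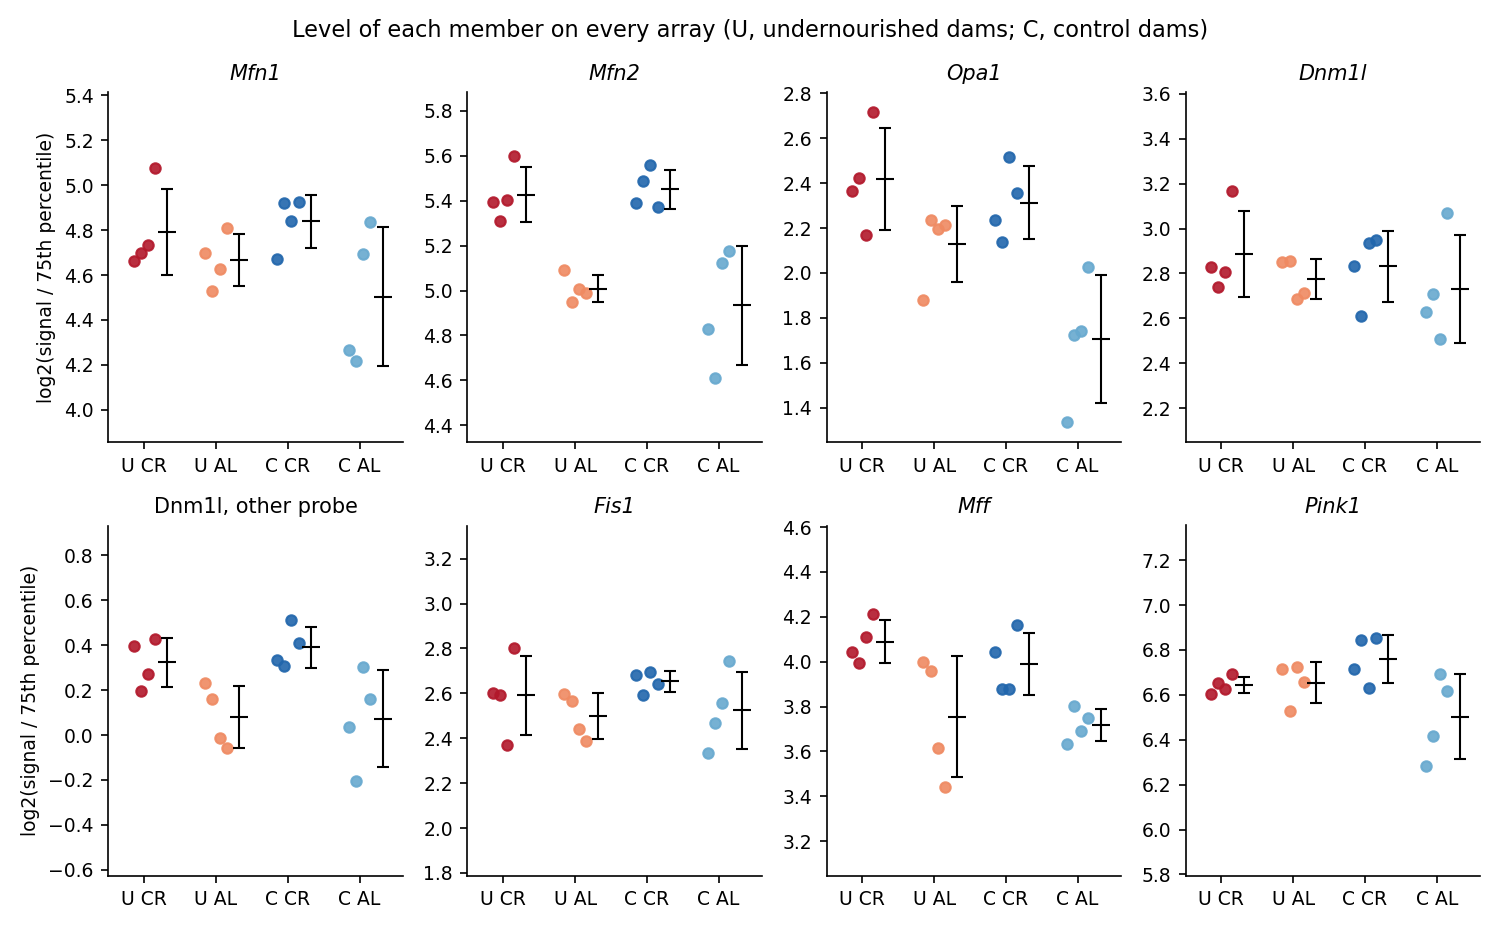
Level of each of the 8 member probes on every array, as log2 of the signal over the array's 75th percentile, by group (U, undernourished dams; C, control dams), with the mean and SD beside the 4 points. For Mfn2 all 8 CR arrays, at 5.31 to 5.60, lie above all 8 AL arrays, at 4.61 to 5.18.

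In offspring of undernourished dams, Mfn2 was the 1 member called, 1.34-fold higher in CR than in AL muscle. In this comparison 10.5% of all tested genes were called higher. The median difference of the 7 members was 0.13, against -0.003 over all genes tested. Mff and Opa1 had positive differences that did not pass the test, and Pink1 lay near 0.

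Mfn2 was at 5.40, 5.31, 5.40 and 5.60 on the undernourished CR arrays, against 5.09, 4.95, 5.01 and 4.99 on the undernourished AL arrays. All 4 CR arrays lay above all 4 AL arrays, and the AL arrays were close together (SD 0.06). Mfn2 was the only one of 7 members without overlap here, where 13.5% of all genes had every CR above every AL array. The difference was 0.42 ± 0.13 (SE, limma adjusted p = 0.029). It was 0.46 without the 5 arrays (adjusted p = 0.0328) and 0.37 with the brain index in the model (adjusted p = 0.021), and the call held in both. The adjusted p lay near the threshold, and in 6 of the 8 analyses that left out 1 undernourished array it was above it (0.0551 to 0.0689). Those arrays were AL replicates 2, 3 and 4 and CR replicates 1, 3 and 4, and the difference stayed between 0.36 and 0.46 over all 8.

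Mff was at 4.05, 3.99, 4.11 and 4.21 on the undernourished CR arrays, against 3.999, 3.96, 3.62 and 3.44 on the undernourished AL arrays. The AL arrays fell into a higher pair, from slide 1, and a lower pair, from slide 2. The difference was 0.34 ± 0.13 and did not pass the test (SE, limma adjusted p = 0.079). Opa1 was at 2.36, 2.42, 2.17 and 2.72 on the undernourished CR arrays, against 1.88, 2.24, 2.20 and 2.21 on the undernourished AL arrays. Its difference of 0.29 ± 0.16 did not pass the test (SE, limma adjusted p = 0.215), and the groups overlapped through CR replicate 3.

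The other 4 members did not pass the test. Mfn1 was at 4.66 to 5.08 on the undernourished CR arrays and 4.53 to 4.81 on the undernourished AL arrays, a difference of 0.13 (95% interval -0.19 to 0.44). Dnm1l was at 2.74 to 3.17 and 2.69 to 2.86 in the same groups, a difference of 0.11 (-0.18 to 0.40), and its dimmer probe gave 0.24 (limma adjusted p = 0.168). Fis1 was at 2.37 to 2.80 in CR and 2.39 to 2.60 in AL arrays, a difference of 0.09 (-0.15 to 0.34). For Pink1 the undernourished CR arrays were at 6.60 to 6.69 and the AL arrays at 6.53 to 6.72, a difference of -0.01 (-0.24 to 0.22). These intervals are wide and do not show equal levels.

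**Figure D2:**
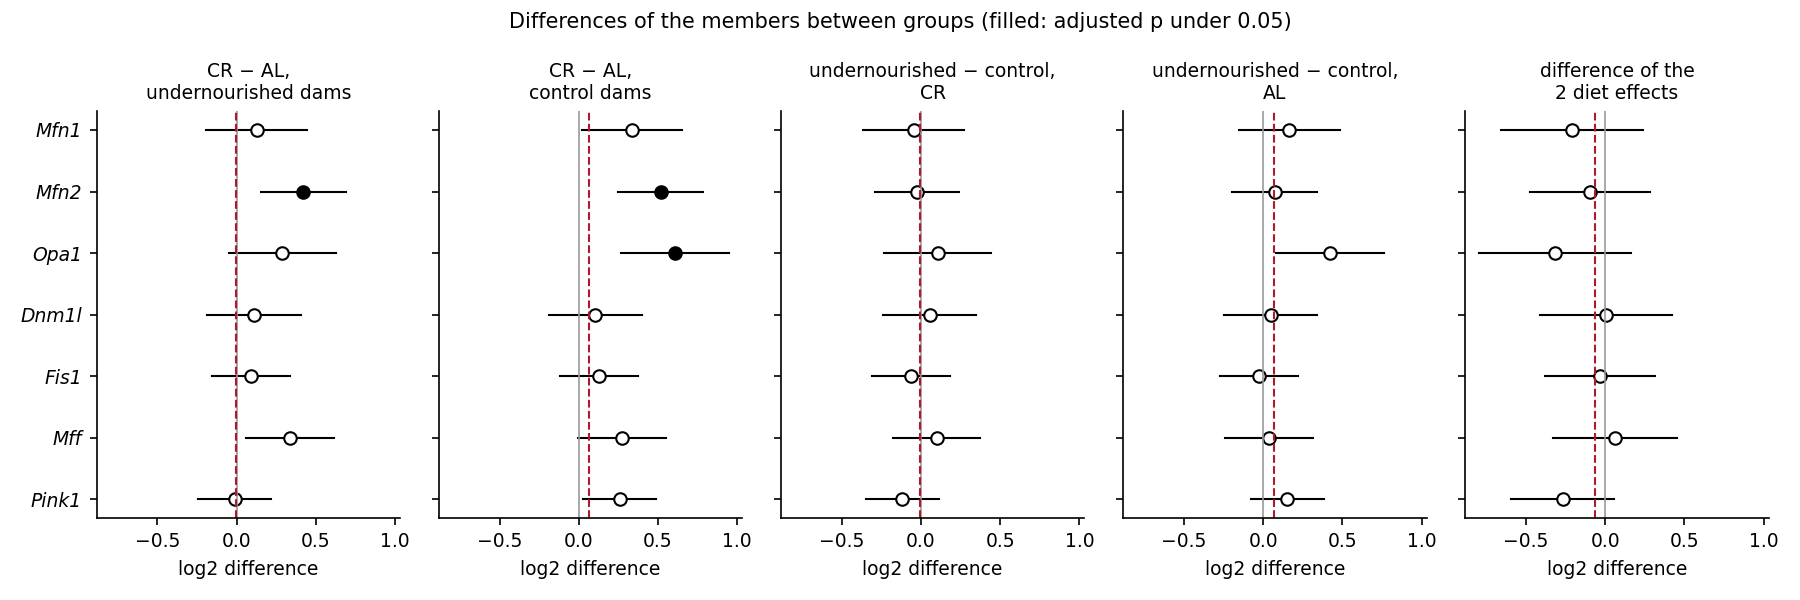
Log2 difference (x axis) with its 95% interval for each member (rows) in 5 comparisons, filled where the limma adjusted p was under 0.05, with the median of all genes tested as a red dashed line. Filled points are Mfn2 in both diet comparisons and Opa1 in offspring of control dams.

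Brain and muscle transcripts moved with diet beside these results. Skin transcripts were raised in control AL replicates 1 to 3 but not in replicate 4. In undernourished offspring their summed level overlapped, at 1.61 to 3.56 in AL and 1.34 to 5.32 in CR arrays. Of the 39 brain markers, 34 were called lower and 1 higher in CR than in AL offspring of control dams, with a median difference of -4.36. In offspring of undernourished dams 25 were called lower and 1 higher, with a median of -2.78. Of the 15 skin markers, 13 were called lower in the control and 1 in the undernourished comparison, and of the 7 leukocyte markers 5 and 0. Of the 10 fast skeletal muscle markers, 2 were called lower in the control comparison, with a median difference of -0.20, and 5 in the undernourished comparison, with a median of -0.42, and none was called higher. Their part in the results was not tested. In pooled muscle, fewer cells of a type and less RNA per cell cannot be told apart. Mfn2 and Opa1 were lowest on the control AL arrays with the highest brain index, at 4.61 and 4.83 for Mfn2 and 1.33 and 1.72 for Opa1. Among undernourished AL arrays, replicate 4 had the lowest index, 0.046, still above the 0.014 to 0.020 of the CR arrays. Mfn2 was at 4.99 there, and on each undernourished AL array it lay below all 8 CR arrays. The part of the index in this was not tested.

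**Figure D3:**
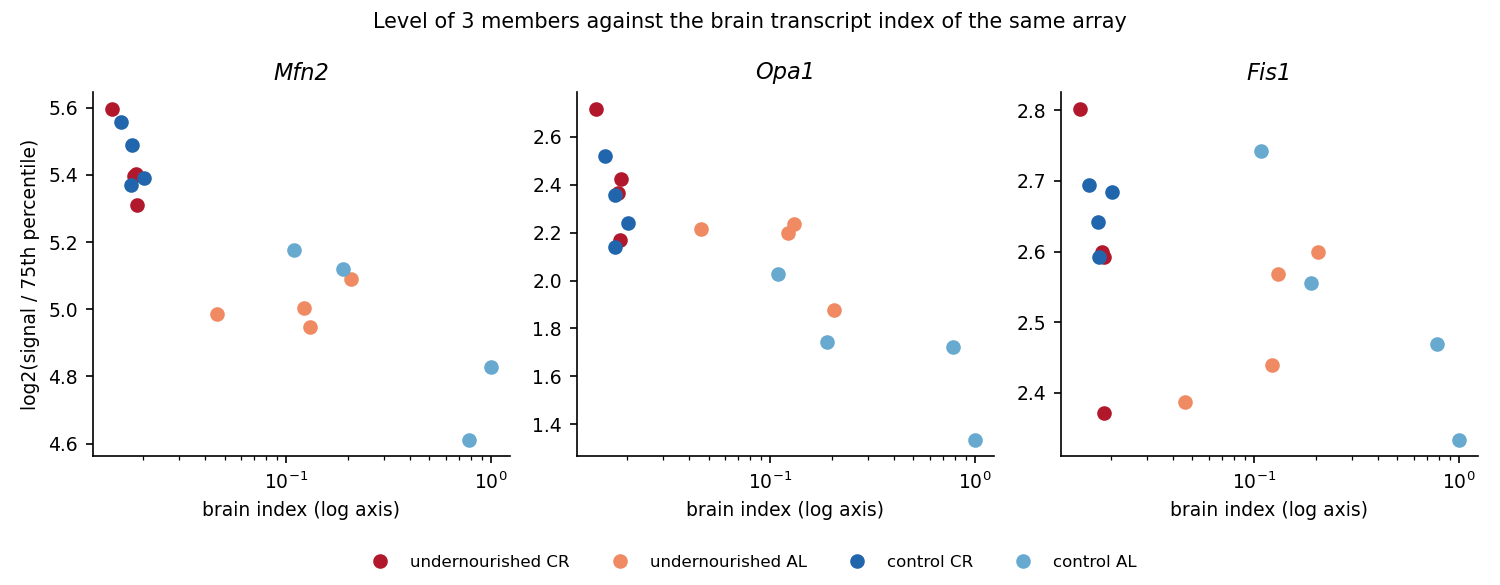
Level of Mfn2, Opa1 and Fis1 (y axis, log2 of signal over the 75th percentile) against the brain index of the same array (x axis, log scale), 1 point per array, coloured by group. The 2 arrays of highest index, 0.779 and 1, are control AL replicates 2 and 1, and for Mfn2 they are the 2 lowest of 16.

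Scaling and background correction moved the median of all genes and the members by unlike amounts, and changed how many members were called. With the authors' deposited log2 values, all 7 members were higher in CR than in AL offspring in both comparisons, by 0.51 to 1.05 in control and 0.50 to 1.04 in undernourished offspring, each with a limma adjusted p under the threshold. On those values 45.8% of all genes in the control and 41.6% in the undernourished comparison were called higher, and the median of all genes was itself 0.29 and 0.24. Relative to it, Mfn2 differed by 0.74 and 0.80, Opa1 by 0.76 and 0.61, and Dnm1l by 0.22 and 0.41 in the control and undernourished comparisons. For probes well above background on every array, lines were fitted to the differences between CR and AL arrays. The authors' differences were 0.831 times the main ones plus 0.404 (medians over 64 pairs of arrays). Within a scan day the added part was -0.004. Whether the median of all genes removes this shift for the members was not tested. With normexp background correction the median of all genes was -0.16 and -0.24, and 5 members were called higher in control offspring (Mfn1, Mfn2, Opa1, Mff and Pink1) and 2 in undernourished offspring (Mfn2 and Mff), where 16.7% and 12.1% of all genes were called higher. With quantile normalization the median of all genes in control offspring was 0.16. Mfn2 and Opa1 were called there, and 22.3% of all genes were called higher. Relative to that median, Mfn2 differed by 0.14 and Opa1 by 0.31. Mfn1, Dnm1l, Fis1, Mff and Pink1 lay below it, at -0.03, -0.22, -0.19, -0.07 and -0.07. Mfn2 was the higher of the 2 mitofusin differences under every scaling tried.

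**Figure D4:**
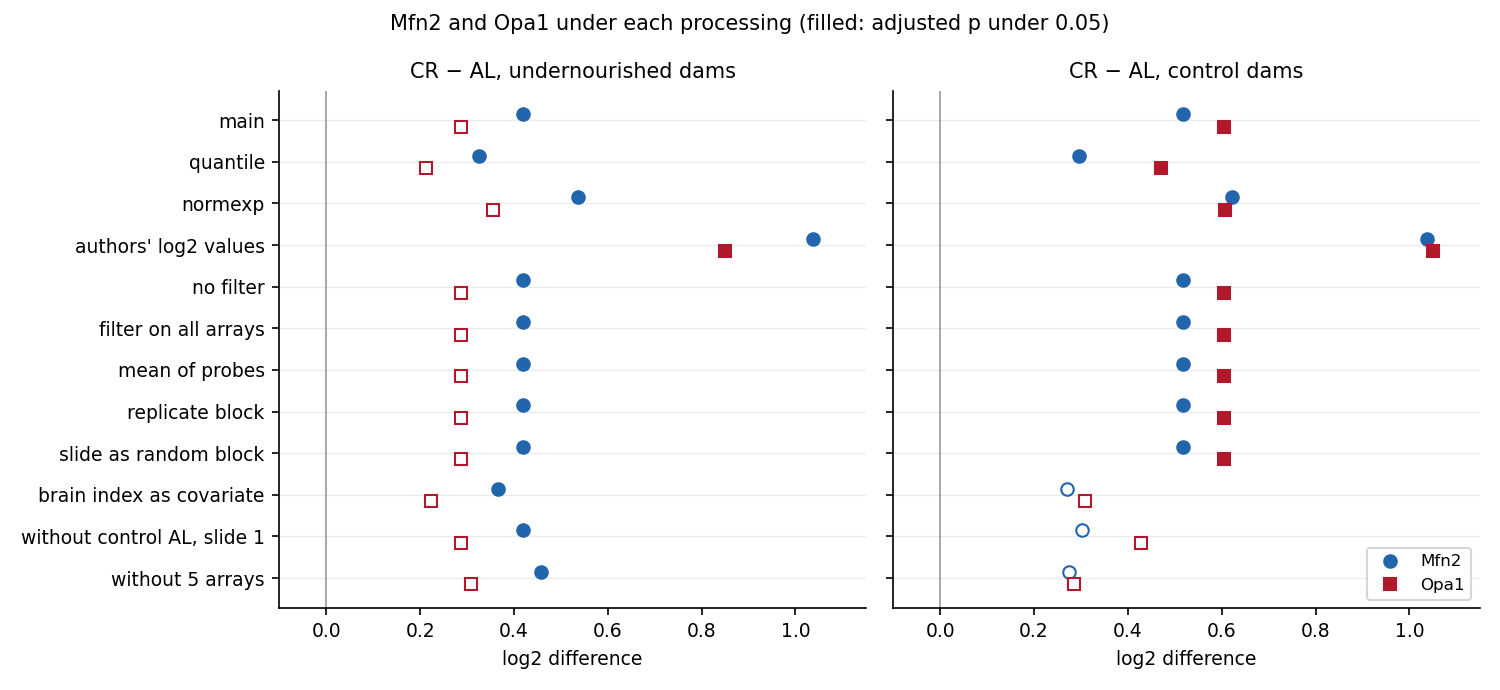
Log2 difference of Mfn2 (circles) and Opa1 (squares) between CR and AL offspring (x axis) under the main and 11 other ways of processing (rows), filled where the limma adjusted p was under 0.05. All values are above 0, and in offspring of control dams the 3 lowest rows are open. Of these, a row leaves out the arrays reported earlier to carry skin or liver transcripts. The others leave out the control AL arrays of highest brain index or put that index in the model.

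A difference between 2 probes on the same array does not change when the whole array is scaled by 1 factor. It can change with quantile normalization, with background correction and in the authors' values, and was taken here from the main values only. Its absolute size has no meaning, and its change between groups shows unequal change of the 2 probes, which can also arise within 1 gene. Between control AL and CR arrays the 2 probes of Dnm1l changed by 0.10 and 0.32. Mfn2 minus Mfn1 averaged 0.64 ± 0.09 on undernourished CR arrays and 0.34 ± 0.11 on undernourished AL arrays (SD, n = 4 each). The CR arrays spanned 0.52 to 0.73 and the AL arrays 0.18 to 0.42, without overlap. In control offspring it averaged 0.61 ± 0.13 in CR and 0.43 ± 0.10 in AL arrays (SD, n = 4 each), and the groups overlapped (0.45 to 0.72 against 0.34 to 0.56). Mfn2 minus Dnm1l was 2.54 ± 0.08 on undernourished CR and 2.23 ± 0.10 on undernourished AL arrays, and 2.62 ± 0.19 on control CR and 2.21 ± 0.30 on control AL arrays (SD, n = 4 each). The undernourished groups again did not overlap (2.43 to 2.60 against 2.09 to 2.32), while the control groups did. This rests on the brighter probe of Dnm1l. With its dimmer probe the undernourished groups overlapped (4.998 to 5.17 in CR against 4.79 to 5.04 in AL), as did the control groups, and the mean difference between CR and AL arrays was 0.18 in undernourished and 0.20 in control offspring, against 0.31 and 0.41 with the brighter probe. The mean of the 3 fusion genes minus that of Dnm1l, Fis1 and Mff spanned 0.98 to 1.07 on undernourished CR and 0.74 to 1.16 on undernourished AL arrays, which overlapped. On control CR arrays it spanned 0.91 to 1.16 and on control AL arrays 0.53 to 0.93. These ratios were formed from members with results known and are given without a test.

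**Figure D5:**
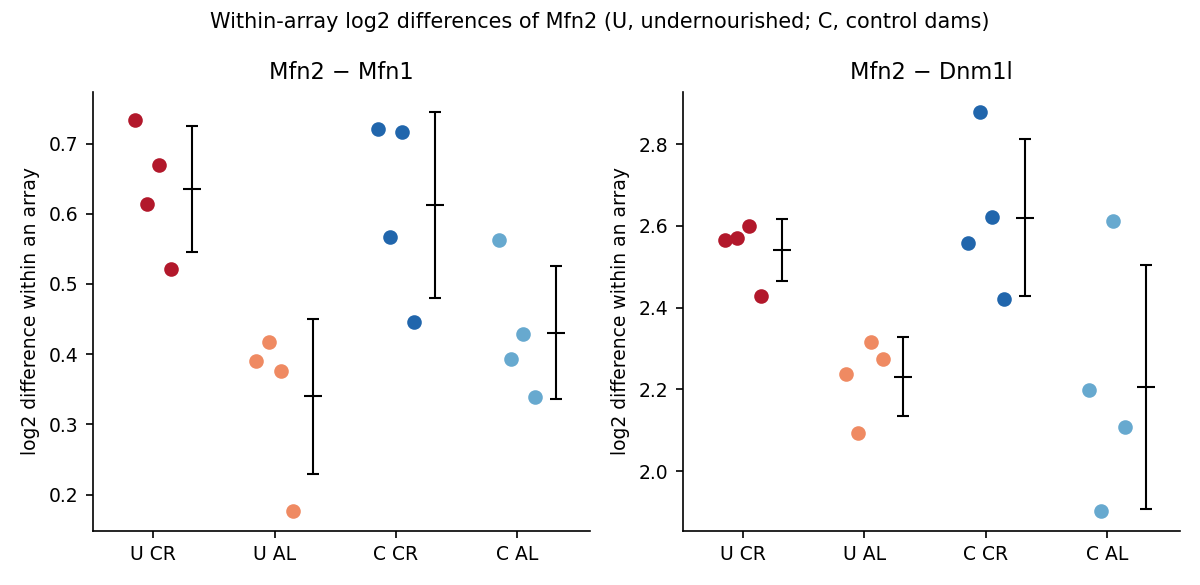
Within-array log2 difference (y axis) of Mfn2 minus Mfn1 and of Mfn2 minus Dnm1l (brighter probe) by group (U, undernourished; C, control dams), with the mean and SD beside the 4 arrays. In both panels the undernourished CR arrays lie above all undernourished AL arrays, which does not hold with the dimmer Dnm1l probe.

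The maternal diet was compared within each offspring diet. In AL offspring no member was called, against 0.0322% of all genes tested. Opa1 came nearest, at 1.88, 2.24, 2.20 and 2.21 on the undernourished AL arrays and 1.33, 1.72, 1.74 and 2.03 on the control AL arrays. Of the undernourished AL arrays, 3 lay above every control AL array, and replicate 1 lay among them. The difference was 0.42 ± 0.16 (SE, limma adjusted p = 0.175). It was 0.53 within slide 1 and 0.32 within slide 2, and had an adjusted p of 0.0991 with slide as a block. Without the control AL arrays of slide 1 it was 0.25 (adjusted p = 0.991). The other 6 members differed by -0.03 to 0.16 in AL offspring. On slide 1, which holds the control AL arrays of highest brain index, all 7 members had positive differences between undernourished and control AL offspring, 0.18 to 0.53, and on slide 2 they ranged from -0.24 to 0.32. None of these passed the test.

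In CR offspring, whose arrays had low brain and, in all but 1, low skin transcripts, no member was called, against 0% of all genes tested. At an unadjusted p under 0.05, none of the 7 members and 712 of all genes differed. The differences between undernourished and control CR offspring ran from -0.12 for Pink1 to 0.11 for Opa1. For Mfn2 the difference was -0.02 (95% interval -0.29 to 0.24) and for Opa1 0.11 (-0.23 to 0.44). The level of Pink1 was 6.60 to 6.69 in undernourished CR and 6.63 to 6.85 in control CR offspring.

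Whether the effect of calorie restriction differed with maternal diet was tested as an interaction, the difference in undernourished minus that in control offspring. No member was called, against 0.00403% of all genes tested. For Mfn2 it was -0.10 (95% interval -0.48 to 0.28) and for Opa1 -0.32 (-0.80 to 0.16). The call of Opa1 in control offspring and not in undernourished offspring is therefore not shown to be a difference between them. Pink1 came nearest, with an interaction of -0.27 ± 0.15 (SE, limma adjusted p = 0.557).

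By mean level, Mfn2 was ordered control CR (5.45 ± 0.09), undernourished CR (5.43 ± 0.12), undernourished AL (5.01 ± 0.06) and control AL (4.93 ± 0.26; SD, n = 4 each). The CR groups did not differ from each other beyond their spread, nor did the AL groups. Opa1 was ordered undernourished CR (2.42 ± 0.23), control CR (2.31 ± 0.16), undernourished AL (2.13 ± 0.17) and control AL (1.71 ± 0.28), and neighbouring groups overlapped. Mff was ordered undernourished CR (4.09 ± 0.09), control CR (3.99 ± 0.14), undernourished AL (3.75 ± 0.27) and control AL (3.72 ± 0.07). Mfn1, Fis1 and Pink1 were highest on average in control CR offspring, and Dnm1l in undernourished CR offspring.

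Over the 16 arrays the mitofusins varied together most closely of the 21 pairs of members, with a Pearson correlation of 0.82, and 0.84 for deviations from the group means. Mfn1 and Pink1 followed with 0.80 and 0.74. Dnm1l and Pink1 had the lowest correlation over the 16 arrays, 0.16, with 0.02 for deviations. These arrays share groups, slides and scan days, and the correlations are descriptions without a test. Among 12703 other named genes well above background on every array, those most like Mfn2 were Phf14 (0.96 over 16 arrays, 0.79 over the 8 CR arrays) and Naa10 (0.96 and 0.65). Opa1 was most like Pdha1, a subunit of pyruvate dehydrogenase (0.97 and 0.95), and Gfm1, a mitochondrial elongation factor (0.97 and 0.81). Mfn1 was most like Rpl28 and Aifm1 (both 0.94 over 16 arrays, 0.95 and 0.86 over the CR arrays), and Dnm1l was most like Ndufaf5 and Rasl2-9 (both 0.90, then 0.95 and 0.91). For Fis1 these were Gstm5 (0.90, then 0.93) and Itgb3bp (0.87, then 0.93), for Mff Dut and Ppt1 (both 0.91, then 0.56 and 0.83), and for Pink1 Znhit6 (0.93, then 0.85) and Git2 (0.90, then 0.88).

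Other genes of mitochondrial dynamics were read from 4 lists, of which 49 of 50 genes were measured. In control offspring, 21 of the 49 were called higher and 3 lower in CR than in AL offspring, with a median difference of 0.31, where 32.3% of all genes tested were called in either direction. In undernourished offspring 9 were called higher and 2 lower, with a median of 0.16, where 20.4% of all genes were called in either direction. The count of 24 called in control offspring moved with the share of all genes called. It was 8 with the brain index in the model (13.6% of all genes), 10 without the control AL arrays of slide 1 (17.6%), 1 without the 5 arrays (3.66%) and 42 with the authors' deposited log2 values (56.4%). In undernourished offspring the count of 11 became 12 with the brain index (25.3% of all genes), 11 without the control AL arrays of slide 1 (24.4%), 9 without the 5 arrays (14.3%) and 40 with the authors' values (47.7%).

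Of 13 genes that support division, 6 were called higher in control and 5 in undernourished offspring, and none lower. Of all genes tested, 17.3% were called higher in control and 10.5% in undernourished offspring. Mul1, a ubiquitin ligase of the outer membrane, averaged 2.39 ± 0.07 in control CR and 1.42 ± 0.18 in control AL offspring (SD, n = 4 each), a difference of 0.97 (limma adjusted p = 3.96e-05), and its difference in undernourished offspring was 0.81 (adjusted p = 0.000314). It kept its call without the 5 arrays (0.92 and 0.81). Dnm2, the GTPase dynamin 2, differed by 0.75 and 0.65 in the control and undernourished comparisons (adjusted p = 0.000104 and 0.000578).

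Of 15 genes that support fusion or the inner membrane, 9 were called higher and 1 lower in control offspring, and 1 each in undernourished offspring. In either direction, 32.3% and 20.4% of all genes were called in these comparisons. Opa3, a mitochondrial membrane protein, was the one higher in both, by 0.97 and 0.67 (limma adjusted p = 0.00029 and 0.00645). Miga1, mitoguardin 1 of the outer membrane, was the one lower in both, at -0.80 and -0.60 (adjusted p = 0.00157 and 0.0154). Its call in control offspring was lost with the brain index in the model (-0.50, adjusted p = 0.0811), and its call in undernourished offspring was lost without the 5 arrays (-0.45, adjusted p = 0.0622).

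Of 8 genes of mitochondrial transport, 4 were called higher and 1 lower in control offspring, and 3 higher in undernourished offspring. The shares of all genes called in either direction were 32.3% and 20.4%. Rhot1, the outer membrane GTPase MIRO1, differed by 0.76 and 0.52 (limma adjusted p = 0.000293 and 0.00659). Trak1, an adaptor between MIRO and motor proteins, differed by 0.75 and 0.82 (adjusted p = 0.000567 and 0.000659). Of 13 measured genes of mitophagy, 2 were called higher and 1 lower in control offspring and 1 lower in undernourished offspring. Both counts lay below the same shares of all genes, 32.3% and 20.4%. The autophagy receptor gene Sqstm1 was lower by -0.61 and -0.92 (adjusted p = 0.0124 and 0.00202), and the mitochondrial phosphatase gene Pgam5 was higher in control offspring by 0.45 (adjusted p = 0.0125), a call lost with the brain index (0.20, adjusted p = 0.357). Without the 5 arrays, none of the genes named here except Mul1 kept its call in control offspring.

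None of the 49 genes was called for maternal diet or for the interaction. In AL offspring the smallest p of each list belonged to Chchd3 (0.42), Gdap1 (-1.04), Pgam5 (0.36) and Snph (-1.34), with limma adjusted p of 0.156 to 0.18. In CR offspring it belonged to Opa3 (-0.15), Mtfr1 (-0.23), Fkbp8 (-0.53) and Trak2 (0.10), and for the interaction to Afg3l2 (-0.50), Spire1 (0.80), Optn (-0.63) and Snph (1.35). Snph, which docks mitochondria in axons, had an SD of 1.40 among the control AL arrays.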

How the data were processed

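RNA from pooled tibialis anterior was labelled with Cy3 and hybridised to Agilent arrays, per the labels' protocols. The deposited scanner files come from Agilent Feature Extraction 10.5.1.1, per the file headers, and give background-corrected processed signal intensity. The number of arrays limits the precision. The authors' deposited table holds log2 values in which every probe's median is 0; how they were normalized is not stated in the labels or headers.

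Control and outlier spots were left out, spots of 1 probe were averaged, and log2 intensity was taken relative to each array's 75th percentile. Probes well above background on at least 4 of 16 arrays were kept (32081), and accessions were matched to RefSeq symbols of GRCm38.p6 (24844 of 41174 probes). The probe of highest mean level stood for a gene. The 5 contrasts were tested by limma 3.58.1 (R 4.3.3) in a linear model of 4 groups with moderated variances and Benjamini-Hochberg adjustment, and the fit was tested on simulated data. No array was dropped or imputed in it. All 7 members and every probe of theirs were named; from each other list up to 2 called genes with the smallest p, or the 1 with the smallest p, were named in each comparison. Members and lists were chosen with earlier results of these data known. Alternatives covered scaling, background, filters, probe choice, arrays left out, brain index, slide and replicate number.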

Additional observations from a re-analysis of the deposited data

Results flagged for a closer look

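The level of Opa1 in undernourished AL offspring had 1 array far from the other 3. Replicate 1 was at 1.88, and replicates 2, 3 and 4 were at 2.24, 2.20 and 2.21, so that its gap to the nearest of them was 0.892 of the group's whole range, above Dixon's 95% critical value for 4 samples. Chance gives such a gap in about 1 of 20 groups, and 32 groups of 8 probes were examined. The brain index of that array, 0.206, was the highest of the 4 undernourished AL arrays; its part in the gap was not tested. Without it the difference of Opa1 between CR and AL offspring of undernourished dams was 0.20 (limma adjusted p = 0.418), against 0.29 with it.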

How the results depend on the processing

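In control offspring the count of 2 members called between the CR and AL groups was 2 to 3 when 1 array was left out, 5 with normexp, 7 with the authors' deposited log2 values, and 0 without the 5 arrays, without the control AL arrays of slide 1 or with the brain index as a covariate, where 16.7%, 45.8%, 1.22%, 7.81% and 5.65% of all genes were called higher, against 17.3% in the main analysis. In undernourished offspring the count of 1 was 0 to 2 when 1 array was left out, 2 with normexp and 7 with the authors' deposited values (12.1% and 41.6% of all genes, against 10.5%). The causes of these moves were not tested, but the settings without arrays hold fewer samples. With the 5 arrays out, only control AL replicate 4 remains, and its spread is taken from the other groups. No member was called for maternal diet or the interaction under any alternative, while 63 of 486 such differences changed sign. With the replicate number as a block, 2 members were called in control and 1 in undernourished offspring, and no call changed. Same-numbered arrays did not pair, since the correlation of their deviations was over 0.1 in 6 of 24 pairs (-0.145 to 0.44) and 6 of 16 arrays correlated best with their own number. With the block, 8008 and 5075 of all genes were called, against 8028 and 5055 without it.

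Of the uncalled differences given one by one, these changed sign. Between CR and AL offspring of control dams, quantile normalization gave -0.063 for Dnm1l and -0.034 for Fis1, leaving out the 5 arrays gave -0.24 and -0.089, and the brain index gave -0.033 for Fis1 and -0.0041 for Mfn1. In undernourished offspring Pink1 was 0.50 with the authors' values, 0.0083 without the 5 arrays and -0.054 to 0.011 when 1 array was left out. Between undernourished and control CR offspring, Mfn2 was 0.014 without the 5 arrays, 0.037 within slide 4 and -0.082 to 0.014 when 1 array was left out. For the interaction, Mfn2 was 0.029 with quantile normalization, 0.18 without the 5 arrays, 0.12 without the control AL arrays of slide 1, 0.095 with the brain index and -0.18 to 0.010 when 1 array was left out, and Opa1 was 0.023 without the 5 arrays.

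Over all genes, calls between CR and AL offspring were higher in 53.6% and 51.6% of cases in control and undernourished offspring, 62.9% and 62.4% with quantile normalization, 34.6% and 22.9% with normexp, 35.7% and 28.9% without a filter, and 81.4% and 87.1% with the authors' values. The normexp setting on median signals, the setting without slide 1 and the second Dnm1l probe were chosen after seeing the data. The planned normexp on mean signals was not run, since the files used hold median signals only.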
